A study of Rattus norvegicus with 19 samples.

Results

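Olig1 split the 12 malignant peripheral nerve sheath tumours (MPNST) of this rat series into 6 in which its probe gave a signal above background and 6 in which it did not. The members were chosen by the detection p-value of the single Olig1 probe in the raw array table, with under 0.05 called detected. The Olig1-detected set holds the tumours T1, T3, T4, T7, T11 and T12, and the Olig1-undetected set holds T2, T5, T6, T8, T9 and T10. Both sets were made from the arrays' own values and are not groups of the study, so Olig1 itself is described and not tested.

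The series comprises 19 Illumina rat arrays, which read total RNA of trigeminal nerve tissue as probe brightness. Every MPNST arose in an adult rat that had received N-ethyl-N-nitrosourea (ENU), a carcinogen that alkylates DNA, on postnatal day 1 at a dose of 80 µg/g, and its RNA was not pooled. The other arrays hold 1 microtumour and 6 pools of trigeminal nerve tagged untreated from rats 85 days old. The microtumour came from a male rat of the congenic strain BDIX.BDIV-Mss4a, also given 80 µg/g ENU on postnatal day 1. The Olig1-detected set has 2 tumours of F1-hybrid rats from BDIV and BDIX parents (T1, female, and T7, male), 2 of BDIX rats (T3 and T4, both female) and 2 of BDIV rats (T11, female, and T12, male). The Olig1-undetected set has 5 F1-hybrid tumours (T5, female, and T2, T8, T9 and T10, male) and 1 female congenic tumour (T6). Each of BDIX, BDIV and the congenic strain gave 1 pool from males and 1 from females. All BDIX and BDIV tumours thus lie in the Olig1-detected set, and the strains meet across the sets only as 2 against 5 F1-hybrid tumours.

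The arrays also fall into separate ranges of background, read from the 25th percentile of raw signal, which was 80.4 to 94.6 in the high range and 59.0 to 67.5 in the low range. In the Olig1-detected set 4 tumours lie in the high range and T11 and T12 in the low range. In the Olig1-undetected set 5 lie in the high range and T9 in the low range. The share of probes above background was 44.7% to 51.3% in the Olig1-detected set, against 44.1% to 50% in the Olig1-undetected set. Nothing in the labels says what the ranges stand for.

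Olig1 is a basic helix-loop-helix transcription factor that, with its neighbour and relative Olig2, acts in the formation of oligodendrocytes, the cells that myelinate axons in the brain and spinal cord. Peripheral nerves are myelinated by Schwann cells, which arise from the neural crest under the transcription factor Sox10. Precursors of oligodendrocytes are recognised by surface molecules such as Pdgfra, a receptor for platelet-derived growth factor, and by proteoglycans such as Cspg4 (NG2).

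Olig1 had raw signals of 23542 in T1, 10605 in T4, 9643 in T3 and 6524 in T7, and of 928 in T12 and 317 in T11, each with a detection p-value of 0. In the Olig1-undetected set the raw signals were 100.4 in T6, 89.5 in T8, 83.7 in T5, 79.3 in T10, 70.7 in T2 and 65.3 in T9. The tumour just inside the threshold was T11 and the one just outside it was T6, whose detection p-value was 0.0848. After normalization, the level of Olig1 was 13.03 to 14.67 on the log2 scale in the 4 tumours of the high range, but 9.06 in T12 and 7.71 in T11. Undetected tumours all lay at 7.20 to 7.29, the level of background. The nerve pools, in all of which Olig1 was detected, spanned 7.30 to 9.07. T11 thus lay within the range of nerve, and T12 lay level with the highest pool. On raw signal T12 stood above every nerve pool, the brightest of which had 650. On average Olig1 stood at 11.89 ± 2.80 in the Olig1-detected and 7.23 ± 0.03 in the Olig1-undetected MPNST (SD, n = 6 each), at least 24.6-fold higher, where the lower value is set to the dimmest signal still called above background. Because these are bulk samples, fewer cells of a type and less RNA per cell cannot be told apart here.

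**Figure D1:**
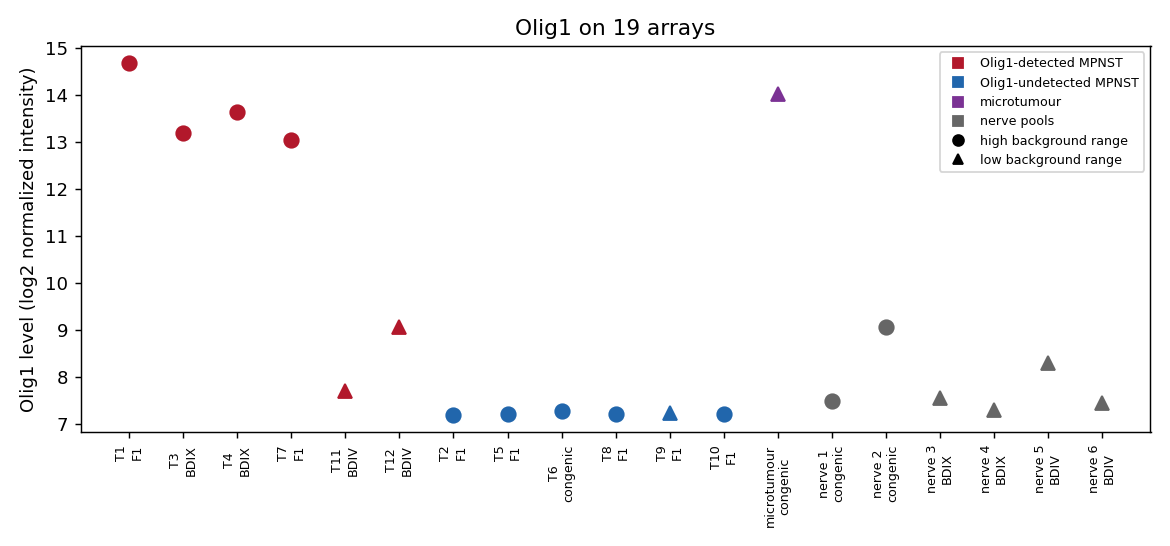
Level of Olig1 (log2 normalized intensity, vertical axis) on each of the 19 arrays, with strain under each array; colour gives the set and shape the range of background. The arrays stand in steps, with T1, T3, T4, T7 and the microtumour above 13, T12 near 9, T11 among the nerve pools and the 6 undetected tumours at the bottom.

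Which other genes differ between the 2 sets was asked across 11795 features, 8574 of them with a gene symbol, with limma's moderated test. Acot1 was the only feature called at an adjusted p under 0.05, higher in the Olig1-detected tumours (0.00848% of the features tested), and none was called lower (0%). Without T1 or without T11 the number called higher was 3, and without T5 it was 2. Without adjustment, limma gave p under 0.05 for 379 features that were higher (3.21%) and 418 that were lower (3.54%), which is 6.76% of all. This split depends on the scaling: when arrays were scaled by their medians, the unadjusted counts became 758 higher and 27 lower, with none called in either direction after adjustment. The 6 arrays of one set did not overlap with those of the other for 47 features that were higher (0.398%) and 13 that were lower (0.11%). The p-values measure the spread between these samples only, since the labels do not say how the tumours relate to each other.

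Acot1 (chromosome 6), a cytosolic thioesterase that frees fatty acids from coenzyme A, was at 9.09 in T1, 8.95 in T3, 9.29 in T4, 8.56 in T7, 9.11 in T11 and 9.56 in T12. In the Olig1-undetected tumours it was at 7.39 in T2, 7.68 in T5, 7.51 in T6, 7.69 in T8, 7.58 in T9 and 7.46 in T10. The sets lay well apart, with T7 the lowest of the Olig1-detected and T8 the highest of the Olig1-undetected tumours, and T11 and T12 stood as high as the tumours with far more Olig1. Acot1 rose by 1.54 ± 0.14 on the log2 scale (SE, 6 against 6 tumours), which is 2.92-fold, with an adjusted p of 0.00301. The call was kept without any 1 of the 12 tumours, with background range as a block (difference 1.5, adjusted p = 0.00618) and within the high range (1.43, adjusted p = 0.0304). It was lost with strain as a covariate (1.27, adjusted p = 0.116) and among the F1-hybrid tumours alone (1.27, adjusted p = 0.208), where the difference kept its direction. Median scaling also ended it (1.53, adjusted p = 0.101). The nerve pools spanned 8.09 to 9.66, so the Olig1-detected tumours lay within the range of nerve and the Olig1-undetected ones below it. Acot2, a closely related gene, stayed near background in every MPNST at 7.24 to 7.37, with a difference of 0 ± 0.03.

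The next 5 features by p in the higher direction are named as not passing the test. Omg (chromosome 10), the oligodendrocyte myelin glycoprotein, a membrane-anchored ligand of the Nogo receptor, was at 11.97 in T1, 11.05 in T12, 10.46 in T4, 9.68 in T3, 9.60 in T11 and 9.52 in T7. Among the Olig1-undetected tumours the highest value was 8.01 in T5 and the lowest 7.32 in T2. The difference of 2.83 ± 0.40 (SE, adjusted p = 0.107) came with no overlap between the sets, and it passed without T1 (2.51, adjusted p = 0.0161). Omg lies within the bounds of Nf1, the neurofibromin gene, in the RefSeq annotation, and the Nf1 probe itself was near background at 7.25 to 7.32 in the Olig1-detected tumours and 7.26 to 7.41 in the Olig1-undetected tumours.

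Fabp7 (chromosome 20), the brain lipid-binding protein of radial glia and Schwann cell precursors, showed the widest gap of the 6. It was at 12.55 in T12, 12.54 in T3, 12.14 in T4, 11.75 in T1, 10.02 in T7 and 8.48 in T11, against 7.25 to 7.72 in the Olig1-undetected tumours. T11 was thus the lowest of its set and still above every Olig1-undetected tumour. The difference was 3.78 ± 0.64 (SE, adjusted p = 0.178), and it passed within the high range (4.11 ± 0.46, adjusted p = 0.0419) and without T11 (4.33, adjusted p = 0.00837).

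Pdpn (chromosome 5), the mucin-like membrane glycoprotein podoplanin, ranged from 9.20 in T7 to 10.63 in T1, against 7.51 in T2 to 8.90 in T5. Its difference was 1.78 ± 0.29 (SE, adjusted p = 0.169). Anxa3 (chromosome 14), a calcium-dependent phospholipid-binding annexin, ranged from 9.93 in T7 to 11.08 in T4, against 8.38 in T2 to 9.49 in T5, a difference of 1.49 ± 0.24 (adjusted p = 0.169). Mtch2 (chromosome 3), a protein of the outer mitochondrial membrane, differed by 0.51 ± 0.09 (adjusted p = 0.178). The sets did not overlap for any of the 3 genes, and T7, the F1-hybrid male, was the lowest of the Olig1-detected tumours for Pdpn and Anxa3.

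The 6 features with the smallest p in the lower direction did not pass the test either. Klhl22 (chromosome 11), a substrate adaptor of a cullin ubiquitin ligase, was at 9.51 to 9.68 in the Olig1-detected and 9.82 to 10.10 in the Olig1-undetected tumours, a difference of -0.38 ± 0.06 (SE, adjusted p = 0.169). Sipa1l1 (chromosome 6), which activates the GTPase function of Rap proteins, had the widest gap, at 8.93 to 10.35 against 9.88 to 10.79 and a difference of -1.05 ± 0.24 (adjusted p = 0.5), and its sets overlapped, since T7 stood above T6. Calhm2, a channel protein, differed by -0.56 ± 0.12, Ccnl1, a cyclin linked to splicing, by -0.43 ± 0.09, Prlh, the precursor of prolactin-releasing peptide, by -0.26 ± 0.06, and Ttf2, a transcription termination factor, by -0.22 ± 0.04. The sets of Calhm2, Ccnl1 and Prlh did not overlap, whereas those of Ttf2 met at 7.61 in T7 and T9. Prlh and Ttf2 lay close to background, and Prlh was detected in only 4 of the 6 Olig1-detected tumours.

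**Figure D2:**
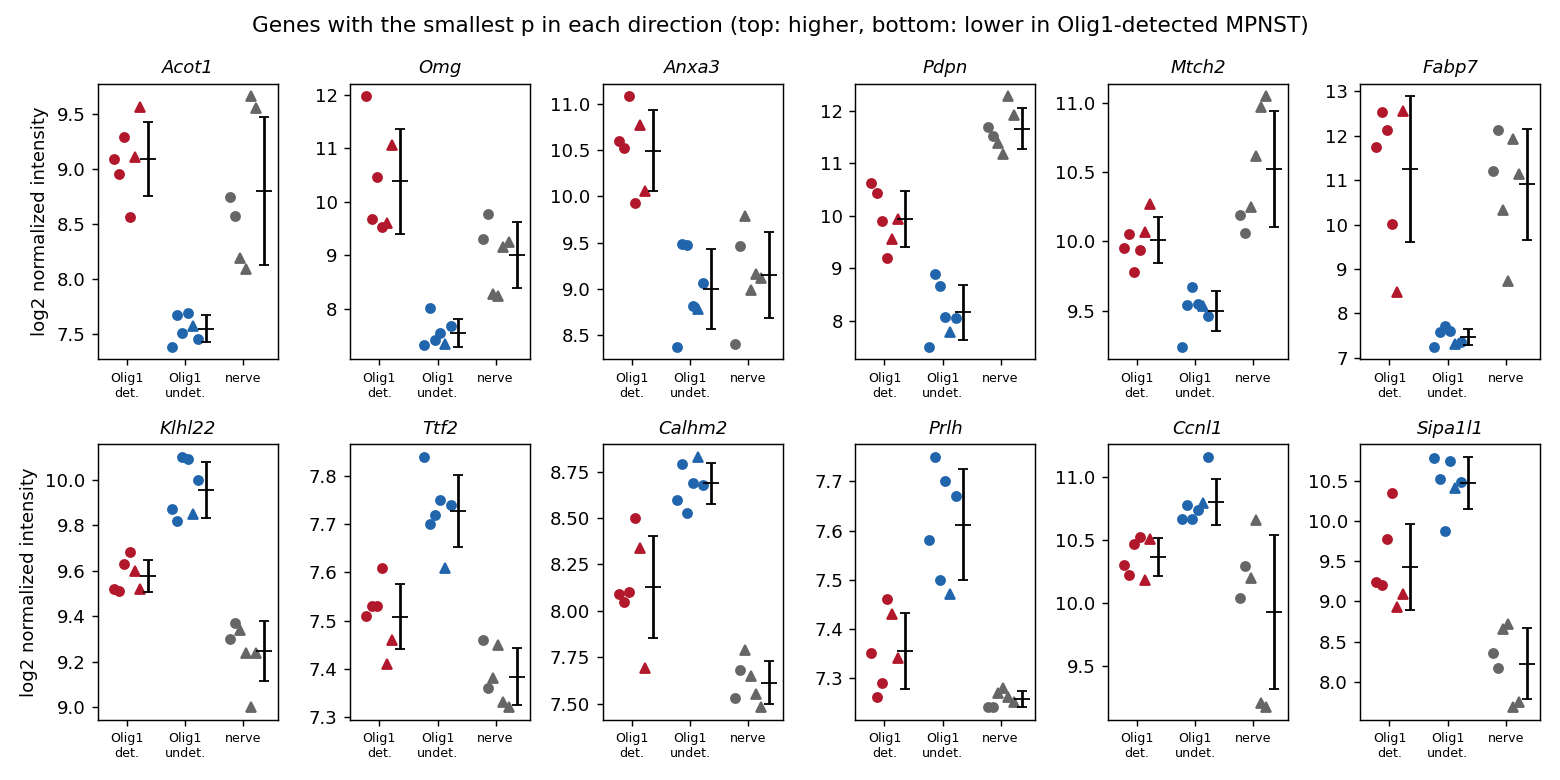
Levels (log2 normalized intensity, vertical axes) of the 6 features with the smallest p in each direction, in Olig1-detected MPNST (red), Olig1-undetected MPNST (blue) and nerve pools (grey); circles are arrays of the high and triangles of the low background range, and bars give the mean and SD. Acot1, Omg and Fabp7 show a compact Olig1-undetected set beneath both other groups, and all 6 lower genes are lower still in most nerve pools.

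Promoters are printed for the called gene, Acot1, for Omg as the runner-up, and for Anxa3, whose window was the only one of the 6 higher genes to hold an E-box of the forms searched. They are the 250 bases before the annotated start in RefSeq, build GRCr8, written in the direction of transcription, at chr6:109367024-109367273 (plus strand), chr10:64962051-64962300 (minus strand) and chr14:13085598-13085847 (minus strand). The motifs searched on both strands were CAGCTG and CATATG, palindromic hexamers of the class that helix-loop-helix factors bind, and capitals mark a match.
Acot1: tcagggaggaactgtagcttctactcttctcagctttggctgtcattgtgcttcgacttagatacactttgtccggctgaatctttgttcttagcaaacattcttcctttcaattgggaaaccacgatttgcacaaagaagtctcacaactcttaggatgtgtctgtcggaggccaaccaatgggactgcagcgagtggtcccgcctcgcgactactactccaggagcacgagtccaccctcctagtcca
Omg: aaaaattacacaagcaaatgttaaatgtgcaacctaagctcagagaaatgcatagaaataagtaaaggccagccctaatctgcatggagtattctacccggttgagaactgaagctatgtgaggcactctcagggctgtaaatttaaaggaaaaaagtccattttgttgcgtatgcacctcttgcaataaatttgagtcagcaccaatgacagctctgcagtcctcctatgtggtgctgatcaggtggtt
Anxa3: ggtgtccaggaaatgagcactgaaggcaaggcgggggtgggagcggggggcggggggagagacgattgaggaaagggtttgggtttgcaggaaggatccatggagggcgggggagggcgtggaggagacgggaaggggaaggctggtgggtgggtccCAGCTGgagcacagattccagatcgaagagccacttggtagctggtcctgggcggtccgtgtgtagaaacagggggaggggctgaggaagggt
The match in Anxa3 starts 93 bases before the start. Of 33469 promoters of this length, 12% hold CAGCTG, 3.63% hold CATATG and 15.2% hold at least 1 of them, so 1 of 6 is near that share. A match is a description of letters and shows no binding.

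T11 and T12 were the only BDIV tumours and had the lowest Olig1 of their set. For them background range, strain and Olig1 level cannot be told apart. Within the high background range, the 4 tumours with the most Olig1 (T1, T3, T4 and T7) were set against 5 undetected ones. This leaves out T9, T11 and T12. In this comparison 6 features were called higher (0.0509%) and none lower (0%), with 425 higher (3.6%) and 343 lower (2.91%) at unadjusted p under 0.05 by limma. Besides Acot1 and Fabp7 these were Cspg5, Nell2, Dscam and Asic4, which were named after their values were seen. Cspg5 (chromosome 8), neuroglycan C, a membrane proteoglycan of neural cells, was at 12.04, 10.93, 11.48 and 10.80 in T1, T3, T4 and T7. It was at 9.98 in T12 and 8.51 in T11, and in the Olig1-undetected tumours at 7.65 to 8.53, so that T11 alone crossed into the range of the other set. Cspg5 rose by 3.10 ± 0.29 within the high range (SE, adjusted p = 0.0273), against a difference of 2.49 ± 0.51 over all 12 tumours (adjusted p = 0.353) and of 2.91 without T11 (adjusted p = 0.0229).

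Nell2 (chromosome 7), a secreted glycoprotein of neural tissue, was at 9.86, 9.23, 9.82 and 8.76 in T1, T3, T4 and T7, but at 7.38 in T11 and 7.43 in T12, against 7.28 to 7.62 in the Olig1-undetected set. It rose by 1.97 ± 0.22 within the high range (adjusted p = 0.0419). Dscam, a cell adhesion molecule encoded on chromosome 11 like Olig1, and Asic4, an acid-sensing channel family member, were not well above background in any Olig1-undetected tumour. Within the high range they were at least 1.40-fold and 1.32-fold higher (adjusted p = 0.00392 and 0.0419). Over all 12 tumours Dscam was not called (adjusted p = 0.584), and with strain as a covariate it was the single feature called (difference 0.49, adjusted p = 0.0256). Hmox1, the haem-degrading oxygenase, was at 11.77 to 12.77 in these 4 tumours, against 8.20 to 10.31 in the 5 undetected ones of the high range, and did not pass the test there (3.0 ± 0.41, adjusted p = 0.0976). Named after its values were seen, it was at 8.43 in T11 and 9.05 in T12, and differed by 2.04 ± 0.79 over all 12 tumours (adjusted p = 0.72).

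For Pdgfra, Bcas1 and Sox8, members of the oligodendrocyte lists picked after their values were seen, T11 and T12 had lower levels than the other Olig1-detected tumours. Cspg4, another precursor gene, did not share that order, at 12.63 in T11 and 11.70 in T12, against 10.15 in T3, 10.32 in T4, 11.32 in T7 and 13.32 in T1. Pdgfra was at 10.85 in T1, 10.66 in T4, 10.32 in T3 and 9.22 in T7, but at 8.23 in T11 and 7.87 in T12, and at 7.72 to 8.44 in the Olig1-undetected tumours. Over all 12 tumours its difference was 1.45 ± 0.51 (SE, adjusted p = 0.64), and within the high range it was 2.14 ± 0.33 (adjusted p = 0.152). T11 and T12 thus sat among the Olig1-undetected tumours. Bcas1, a marker of newly formed oligodendrocytes that nerve also expresses, followed the same order, with 12.67, 10.93, 11.09 and 10.54 in T1, T3, T4 and T7, 8.11 in T11 and 7.95 in T12, against 7.68 to 9.29 in the Olig1-undetected set. Sox8, a relative of Sox10, was highest in T1 at 10.46 and lowest of its set in T12 at 7.49, against 7.46 to 8.0. C1ql1, a secreted protein of precursors, was detected in 5 Olig1-detected and 0 Olig1-undetected tumours, with 8.68 in T1 as its highest level, and was at least 1.36-fold higher on average (adjusted p = 0.736).

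**Figure D3:**
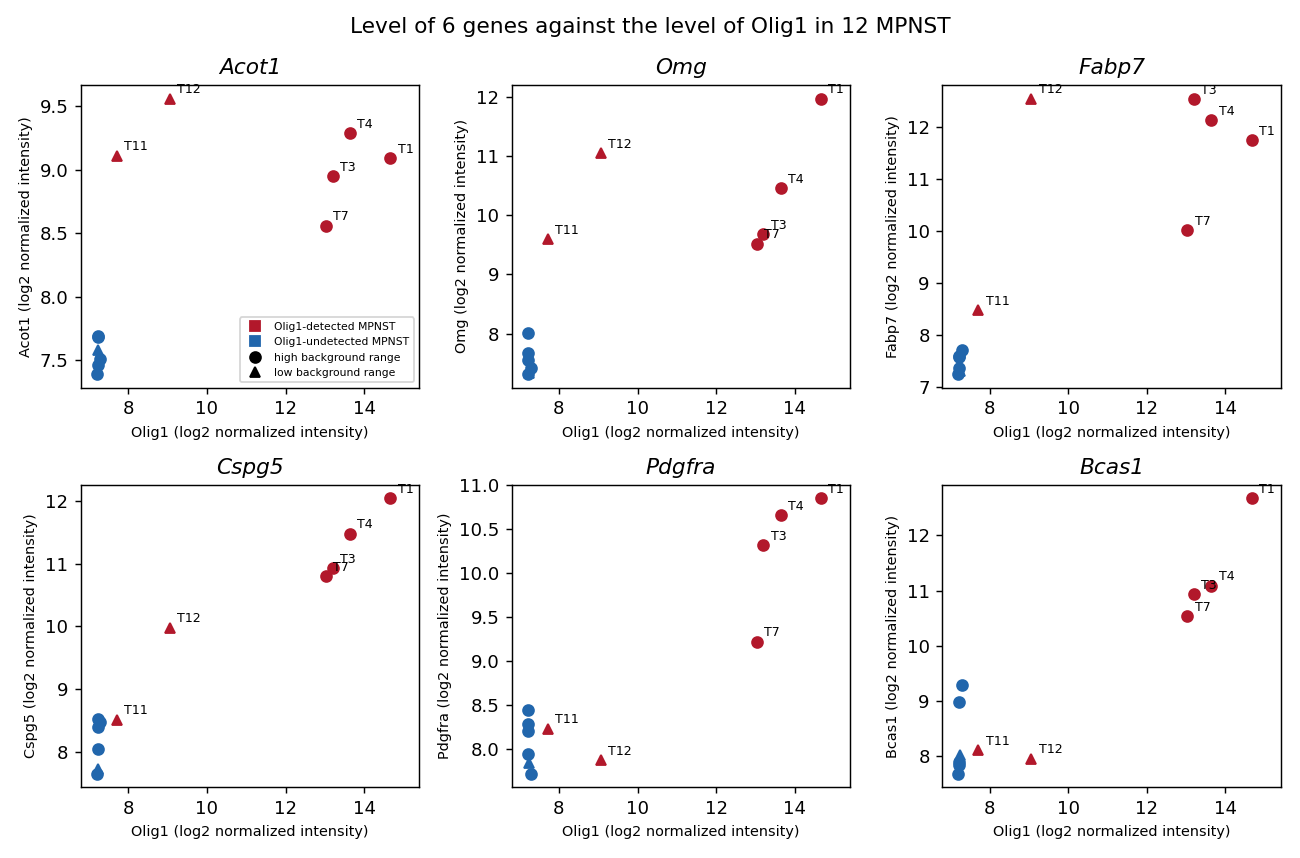
Level of 6 genes against the level of Olig1 in the 12 MPNST (both axes log2 normalized intensity); red points are Olig1-detected and named, blue points Olig1-undetected, and triangles mark the low background range. In the panels of Acot1 and Omg, T11 and T12 stand with the other red points, while for Pdgfra and Bcas1 they stand with the blue points.

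The oligodendrocyte lists had few members with a large difference. Of the 27 genes of the precursor list 17 had a probe and 11 were tested, and none was called. By limma 3 had an unadjusted p under 0.05 in the higher direction, where 3.21% of all features had one. Of the 11 tested genes 6 were higher on average, where 5541 of all 11795 features were. The median difference was 0.16, beside -0.004 over all features. Olig2 was near background in every tumour, at 7.24 to 7.35 in the Olig1-detected and 7.23 to 7.29 in the Olig1-undetected set. Cspg4 ranged from 10.15 in T3 to 13.32 in T1, against 8.36 in T9 to 12.82 in T2, a difference of 0.56 ± 0.82 (adjusted p = 0.898) that turned to -0.27 within the high range. Nkx2-2, Ptprz1 and Gpr17 have no probe under their symbols. Of the mature oligodendrocyte list 12 of 16 genes were tested and none was called. All 12 were higher on average in the Olig1-detected set, with a median difference of only 0.07. By limma 2 of them (Bcas1 and Cnp) had an unadjusted p under 0.05. Within the high range 4 were higher at that p by limma, where 3.6% of all features were.

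**Figure D4:**
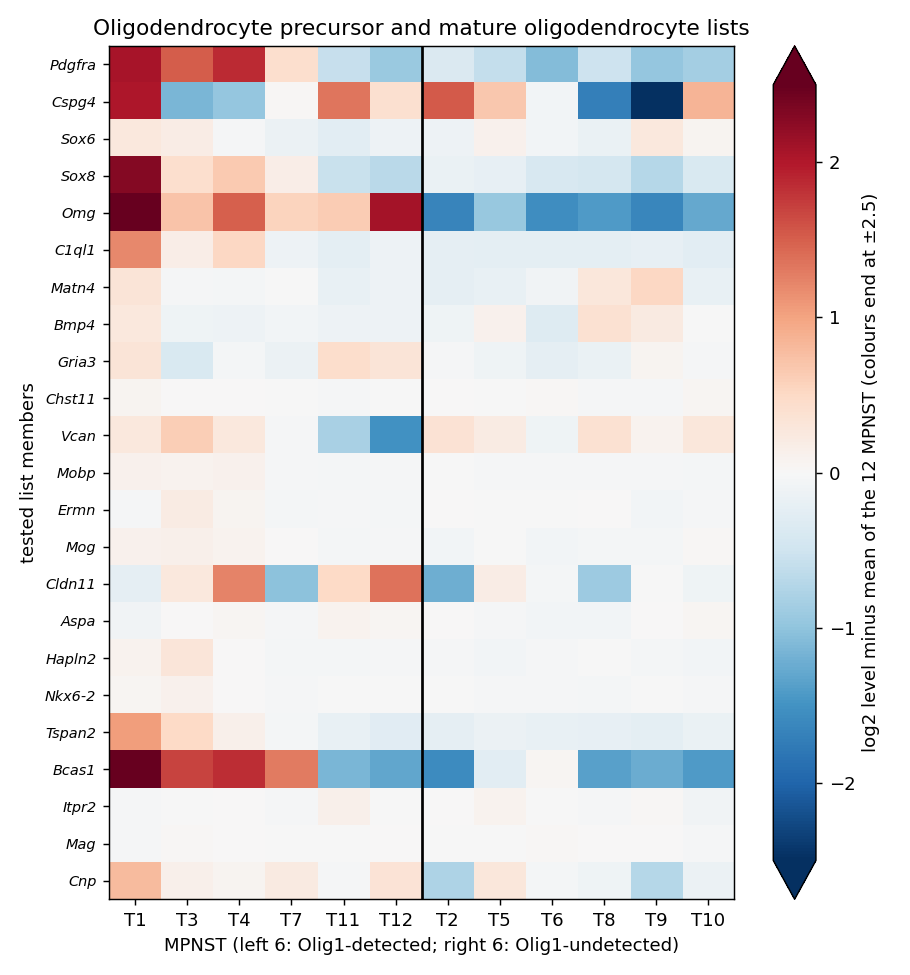
Level of each tested member of the 2 oligodendrocyte lists in the 12 MPNST, as the log2 level minus the mean of the 12 (colour scale ending at ±2.5); the black line divides Olig1-detected (left) from Olig1-undetected tumours. Omg is raised across all 6 columns on the left, whereas Pdgfra, Sox8, Tspan2 and Bcas1 are raised in T1, T3, T4 and to a lesser degree T7, and Mobp, Mog and Mag are nearly flat.

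None of the Schwann lineage regulators passed the test. Sox10 was at 11.89 in T11 to 12.78 in T7, against 12.18 in T2 to 12.93 in T10, a difference of -0.07 ± 0.19 (adjusted p = 0.948) whose sign turned with median scaling (0.14). Sox2, a factor of immature glia, differed by 0.07 ± 0.35 and Erbb3, the neuregulin receptor, by -0.13 ± 0.32, and the sign of the Erbb3 value also turned with median scaling (0.14). Ngfr, the low-affinity neurotrophin receptor, was at 12.48 to 12.93 in T3, T4 and T7 but at 8.18 in T12, 9.33 in T1 and 9.48 in T11, against 11.37 to 13.36 in the Olig1-undetected set (difference -1.72 ± 0.87, adjusted p = 0.742). The 3 low tumours thus lay under every Olig1-undetected one. S100b, a calcium-binding marker of Schwann cells, was highest in T12 at 13.01 and T11 at 12.52, with 9.69 to 12.22 in the Olig1-undetected set (difference 0.74 ± 0.54, adjusted p = 0.801). Ccnd1, the G1 cyclin, differed by -0.16 ± 0.30.

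Of the 10 tested genes of the myelinating Schwann cell list, 4 had an unadjusted p under 0.05 and all 4 were higher, with a list median of 0.27. Among all features, limma gave such a p in the higher direction for 3.21%. Ugt8, which makes the myelin lipid galactosylceramide, was at 8.01 to 9.0 against 7.32 to 7.84 (0.84 ± 0.18, adjusted p = 0.358). Mal, a myelin proteolipid, was at 8.64 to 9.81 against 7.22 to 9.12 (1.25 ± 0.33, adjusted p = 0.513). Both stood far under the nerve pools, which began at 11.31 for Ugt8 and 13.56 for Mal. Mbp, myelin basic protein, was at 9.23 in T12 and 8.18 in T11 and at most 7.72 in the other tumours of either set (0.56 ± 0.27, adjusted p = 0.74).

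Nerve, which took no part in the test, was compared with the tumours for the features whose sets did not overlap. All 6 nerve pools lay above all 6 Olig1-undetected tumours for 38 of the 47 non-overlapping features that were higher (80.9%), against 13.3% of all features tested. Of the 13 that were lower, the nerve pools lay below all Olig1-undetected tumours for 10 (76.9%), against 14.9% of all features. These shares are a description, since extreme values in the Olig1-undetected set helped to choose the features. Ptgds, Tgfa and Resp18, named after their values were seen, are examples. Ptgds, the prostaglandin D synthase, was at 8.97 in T7 to 13.41 in T3 in the Olig1-detected set, at 7.25 to 7.88 in the Olig1-undetected set and at 12.60 to 14.99 in nerve (3.13 ± 0.63, adjusted p = 0.353). Tgfa, a ligand of the epidermal growth factor receptor, was at 8.59 to 11.39, against 7.29 to 7.73, with 10.56 to 12.15 in nerve (1.90 ± 0.40, adjusted p = 0.358, and 1.5 with an adjusted p of 0.00842 without T1). Resp18, a protein of secretory granules in neuroendocrine cells, was at 8.17 to 9.68, against 7.37 to 7.80, with 10.17 to 12.43 in nerve (1.27 ± 0.24, adjusted p = 0.293).

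Sensory neuron genes, whose RNA in a bulk tumour sample may come from remaining nerve tissue, had higher average levels in the Olig1-detected set. Of 23 listed genes 20 had a probe, and all 17 tested were higher on average in the Olig1-detected tumours, where 5541 of all 11795 features were. The median difference was 0.71 with 5 members at unadjusted p under 0.05, and 0.50 with 1 such member within the high range, and none was called. Of all features, 3.21% were higher at that p by limma, and 3.6% within the high range. The mean level of the list, relative to the 12 tumours, ran from -0.32 in T7 to 0.99 in T3 in the Olig1-detected set and from -1.01 in T9 to 0.73 in T6 in the Olig1-undetected set. T5 (0.55) and T6 thus lay within the range of the Olig1-detected tumours. The lowest levels were those of the F1-hybrid males of both sets, T7 and, at -1.01 to -0.82, T2, T8, T9 and T10. Every other tumour lay at -0.02 (T4) or higher. Sex and strain are unevenly divided between the sets, and their part in this list was not tested. The summed normalized intensity of the list was 13700 to 40800 in the Olig1-detected and 4750 to 41300 in the Olig1-undetected set. Nefl, a neurofilament subunit, was detected in all 6 Olig1-detected and in 4 Olig1-undetected tumours, and Stmn3 in 6 and 3. The part of nerve tissue in the differences between the sets was not tested.

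Among the other lists, the interferon response list shifted higher and the cell cycle and extracellular matrix lists lower, with no member called. On average, 16 of 18 interferon response, 2 of 37 cell cycle and 2 of 20 extracellular matrix genes were higher in the Olig1-detected set. The same held for 5541 of all 11795 features. The interferon response list had 18 tested genes, 8 of them higher at unadjusted p under 0.05, and a median of 0.28, but 1 such gene within the high range. Its member Mx1, an antiviral GTPase, was at 8.32 in T4 to 11.23 in T1, against 7.44 in T10 to 9.29 in T8 (1.84 ± 0.58, adjusted p = 0.584), so the sets overlapped. Cell cycle genes had a median of -0.39 over 37 tested, with 8 lower at unadjusted p under 0.05, and -0.16 with none within the high range. T11 had the lowest mean level of this list at -0.88. Extracellular matrix genes had a median of -0.41 over 20 tested, with 5 lower at unadjusted p under 0.05, and -0.44 with 2 such genes within the high range. Among all features, limma gave such p-values for 3.21% higher and 3.54% lower, and within the high range for 3.6% and 2.91%.

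Single regulators in other lists had larger gaps than their lists. Spry1, a feedback inhibitor of Ras signalling, was at 7.88 to 8.32 against 8.34 to 9.20, without overlap (-0.57 ± 0.15, adjusted p = 0.513), while the list of MAPK output genes it belongs to had a median of 0.04. Hes1, a repressor induced by Notch, was at 7.92 to 8.69 against 8.58 to 9.60 (-0.64 ± 0.18, adjusted p = 0.546). Id2, which sequesters helix-loop-helix partners, was at 10.47 to 11.30 against 9.41 to 10.77 (0.76 ± 0.24, adjusted p = 0.584). The 15 tested neighbours of Olig1 on chromosome 11 had a median of 0 and none had an unadjusted p under 0.05. The skeletal muscle list had a median of -0.22, and its summed intensity was 1820 to 2060 in the Olig1-detected set against 1820 to 20000 in the Olig1-undetected set, where T2 and T10 alone were high; its part in the lower genes was not tested.

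**Figure D5:**
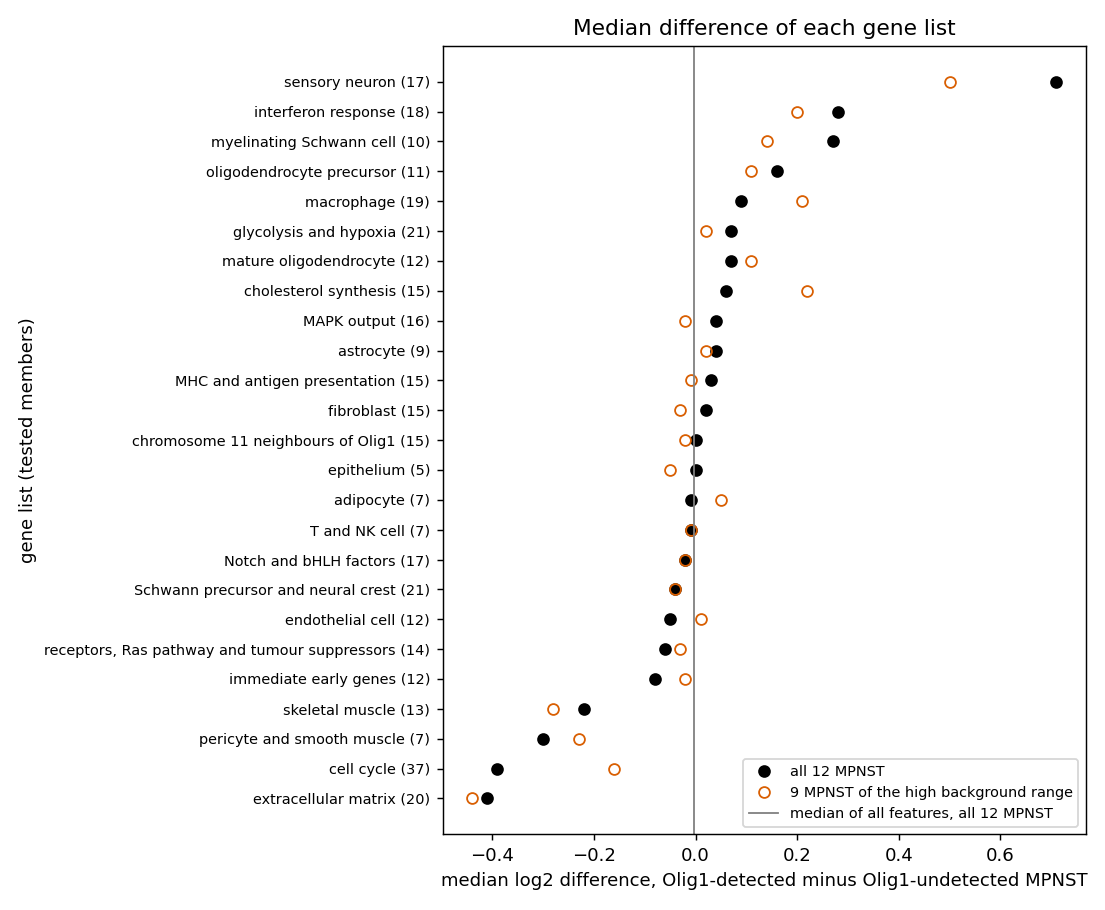
Median log2 difference, Olig1-detected minus Olig1-undetected MPNST (horizontal axis), of each gene list with at least 5 tested members (number in brackets), over all 12 tumours (filled) and over the 9 of the high background range (open). The sensory neuron list stands farthest to the right, at 0.71 and 0.50, and the cell cycle list moves from -0.39 to -0.16 when the low range is left out.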

How the data were processed

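Total RNA of 12 MPNST, 1 microtumour and 6 nerve pools was read on Illumina arrays with BeadStudio 3.0, per the submitters' processing notes. Per the file headers, the raw table holds an average intensity and a detection p-value for each probe and array. The authors also deposited scaled, background-subtracted intensity values, in which each MPNST column was a straight-line function of its own raw column (largest residual 0.0145). The genome build is not given in the sources used here.

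Raw intensities were normalized over all 19 arrays with neqc of limma 3.58.1 in R 4.3.3 (normexp from detection p-values, quantiles, offset 16, log2), so log2 values are not those the authors deposited. Of 21791 probes, 11816 detected on at least 6 arrays were kept, 1 per symbol by highest mean; 13387 probes have a symbol and 8404 none. Promoter and chromosome entries are RefSeq, build GRCr8.

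The 6 Olig1-detected and 6 Olig1-undetected MPNST were compared by two-sided moderated tests in limma, Benjamini-Hochberg adjusted across 11795 features (all but Olig1), at a threshold of 0.05 and with 10 residual degrees of freedom. The sets, the gene lists and the named genes were chosen with earlier results of these data known. Named were the 6 features with the smallest p in each direction, since fewer than 5 were called, called list members and a fixed set of 16 genes, of which some are not reported here; all others, further list members included, were named after their values were seen. Gene lists are described by counts and medians. Alternatives covered scaling, offset, filter, background range, strain, sex, array weights, samples fitted and each tumour left out. The number of arrays limits the precision. The fit was tested on simulated data before use.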

Additional observations from a re-analysis of the deposited data

Results flagged for a closer look

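Among 44 sets of 6 tumours examined, the named and fixed genes in both sets, 3 held a tumour far from the rest, and chance alone gives about 1 in 20. Sox10 was lowest in T11 of the Olig1-detected set at 11.89, with the nearest tumour at 12.50. Erbb3 was highest in T12 of the same set at 11.03, with the nearest at 9.62. Ccnl1 was highest in T10 of the Olig1-undetected set at 11.16, with the nearest at 10.79.

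The microtumour, which belonged to neither set, was compared with nerve only for Olig1 and the higher genes named by rule. Of these genes, 4 were higher in it than in every nerve pool. Olig1 was at 14.02 in the microtumour, against 9.07 in the highest nerve pool. Fabp7 was at 12.49 against 12.14, Omg at 10.58 against 9.77 and Anxa3 at 9.88 against 9.79. It is a single array of the congenic strain and the differences were not tested. The difference between the sets was also compared between the sexes: limma's interaction test called 0 features, with 465 at an unadjusted p under 0.05.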

How the results depend on the processing

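Of the 26 alternatives, 22 kept Acot1 past the threshold, with differences of 1.27 to 2.76 over all of them and adjusted p of 0.000237 to 0.685; the exceptions were median scaling, the low background range alone (1.76 with 1 residual degree of freedom), strain as a covariate and F1-hybrid tumours alone. The count of features called higher was 1, and it became 0 with median scaling, 9 with the authors' values, 6 in the high and 0 in the low background range, 2 with sex as a covariate (Acot1 and Anxa3), 4 with array weights and 4 when all 19 arrays were fitted (Acot1, Omg, Anxa3 and Pdpn). With strain as a covariate the 1 call was Dscam and among F1-hybrid tumours it was Zcchc12. Leaving out each tumour gave 1 to 3 higher (3 without T1, 2 without T5 and 3 without T11) and 0 to 0 lower. No feature was called lower under any alternative run. All 12 rule-named genes kept their direction in all 26. Sox10 turned to 0.14 with median scaling, 0 with background as a block, 0.04 in the low range and 0.16 with strain as a covariate and in F1-hybrid tumours, with -0.15 to 0.06 over the tumours left out. Sox2 turned to -0.02 with the block, -0.08 in the high range and -0.14 with array weights, with -0.13 to 0.26 over the tumours left out. Cspg4 turned to -0.27 in the high range, and Erbb3 to 0.14 with median scaling and 0.69 in the low range. Ccnd1 turned to 0.02 with the block, 0.12 in the high range, 0.22 with strain and in F1-hybrid tumours and 0.09 with array weights, with -0.30 to 0 over the tumours left out. The causes were not tested. Median scaling and the authors' values moved the median of all features to 0.05 and 0.048, and list medians moved too. With median scaling they were 0.14 in place of -0.04 for Schwann precursor, -0.14 in place of -0.39 for cell cycle, -0.25 in place of -0.41 for extracellular matrix, 0.27 in place of 0.16 for oligodendrocyte precursor, 0.2 in place of 0.04 for MAPK output and 0.06 in place of 0 for chromosome 11 neighbour genes. With the authors' values they were 1.8 in place of 0.71 for sensory neuron, 0.76 in place of 0.28 for interferon response, 1.07 in place of 0.27 for myelinating Schwann cell, 0.55 in place of 0.07 for mature oligodendrocyte, 0.36 in place of 0.16 for oligodendrocyte precursor and -1.03 in place of -0.22 for skeletal muscle genes. No paired analysis was possible because the sets divide the MPNST, whose replicate numbers are all different. Strain and set overlap in F1-hybrid tumours only, and levels near background have differences smaller than the true ratio.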

Other observations

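Values of 4 further neural genes, named after they were seen, are given without a call. Tnr, tenascin-R of the matrix around neurons and oligodendrocytes, was at 9.97 in T1, 7.72 in T7 and 7.49 in T3 and between 7.20 and 7.28 in the Olig1-undetected set, where no array detected it, and did not pass the filter on detection. Neu4, a sialidase, was detected in 4 Olig1-detected and 0 Olig1-undetected tumours and peaked at 7.59 in T4. Ntrk3, the receptor of neurotrophin-3, was at 9.78 in T12, 8.67 in T1 and 7.52 to 8.02 in the other Olig1-detected tumours, against 7.21 to 7.43 in the Olig1-undetected set (difference 0.95 ± 0.34, adjusted p = 0.67). Gfap, the filament protein of astrocytes and non-myelinating Schwann cells, was at 9.14 in T7 to 13.17 in T1, against 8.21 in T9 to 12.06 in T5 (difference 2.13 ± 0.80, adjusted p = 0.711).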
